A study of Mus musculus with 8 samples.

Results

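The nuclear-encoded subunits of the oxidative phosphorylation complexes were followed in the lumbar spinal cord of SOD1G93A mice, a transgenic model of amyotrophic lateral sclerosis (ALS) that carries a mutant human SOD1. Members were all genes of the normalized table whose symbols begin with the usual stems of these subunits (Ndufa, Ndufb, Ndufc, Ndufs or Ndufv with a number, Sdha to Sdhd, Uqcr, Cox with the numbers 4 to 8 and a letter a to c, and Atp5). Of 99 symbols in the raw table that matched, 81 were members, out of 19470 genes tested and 55291 genes counted. A further 12 were not in the normalized table and had at most 13 counts in any mouse, 5 were left out because their symbols end in -ps, and Ndufa4l2 was left out by name. The members were 35 of complex I, 4 of complex II, 8 of complex III, 17 of complex IV and 17 of complex V, with Ndufa4 placed in complex IV, where its protein is found. The stems do not take Cox4i1, Cyc1 or Ndufab1, which are covered with the other genes of the pathway.

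Bulk RNA-seq was compared between 2 genotypes of male mice. Mice E1776, E5231, with E5248 and E5568, were SOD1G93A Ager fl/fl Cx3cr1 Cre/+ and are called Ager-deleted, and mice E5386, E5642, with E6578 and E6732, were SOD1G93A Ager+/+ Cx3cr1 Cre/+ and are called controls (n = 4 each). All 8 mice were of the C57BL/6 strain by their labels. They carried the SOD1G93A transgene and a tamoxifen-inducible Cre recombinase driven from the Cx3cr1 locus. In the spinal cord this locus is active mainly in microglia, so only this small share of the cells in each Ager-deleted sample could lose Ager. The controls were Ager+/+ and had no floxed allele for Cre to remove. All 8 received tamoxifen, at 12 weeks by the labels, and the labels give an age of 120 days; the paper's text describes the tissue as end-stage. There were no mice without the transgene or without Cre.

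Oxidative phosphorylation takes place in the inner mitochondrial membrane. Complexes I and II pass electrons from NADH and succinate to ubiquinone, complex III passes them to cytochrome c, complex IV passes them to oxygen, and complex V uses the resulting proton gradient to make ATP. Most subunits are made from nuclear genes and imported, whereas mitochondrial DNA encodes the hydrophobic cores of all but complex II. Neurons depend heavily on this pathway, and skeletal muscle, heart and brown fat use their own isoforms of some complex IV subunits.

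Each mouse had from 31148047 to 40324897 counts on genes, of which the members held between 0.914% and 1.04%. Levels are in CPM, counts scaled to a common library total. A gene with 3 counts, the floor used here, would stand at 0.0744 to 0.0963 CPM, and this floor reflects counting error alone. Markers of the labeled tissue were present in every mouse: Snap25 of neurons at 1160 to 1783 CPM, Chat of motor neurons at 10.8 to 20.6 CPM, Gfap of astrocytes at 6643 to 10908 CPM, Mbp of oligodendrocytes at 11047 to 13683 CPM and Cx3cr1 of microglia at 75.5 to 123 CPM. Ager itself, the targeted gene, had levels of 0.889, 1.51, 1.02 and 1.34 CPM with the deletion and of 1.53, 2.22, 2.18 and 2.41 CPM in controls, with every control above every deleted mouse (log2 fold change 0.81, SE 0.22; adjusted p = 0.252 by edgeR's exact test). Of the libraries, 3 stood apart. Control E5642 and control E5386 were high for skeletal muscle genes, E5386 also for fat genes, and control E6732 for liver genes (Alb at 452 CPM, against 0.0618 to 0.762 CPM in the other mice). Results that rest on the first pair are given with and without them. In bulk tissue, fewer cells of a type and less RNA per cell cannot be told apart.

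No nuclear-encoded subunit passed the threshold between genotypes. With edgeR's exact test, adjusted over all genes, 0 of 81 members had an adjusted p under 0.05, where 0.0719% of all genes did. At an unadjusted p under 0.05 the exact test had 2 of 81, Cox8b and Cox6a2, where 4.26% of all genes passed. At that level edgeR's quasi-likelihood test and DESeq2 each had 4, these 2 with Ndufc2 and Atp5l, where 6.71% and 6.52% of all genes passed. Limma-voom had 2, Ndufc2 and Atp5l, where 6.11% passed. After adjustment, DESeq2, limma-voom and edgeR's quasi-likelihood test also called 0 members, where they called 0.128%, 0.00514% and 0.00514% of all genes. The exact test called 1 with common and tagwise dispersions, Cox8b, where it called 0.401% of all genes. The median log2 fold change, controls over Ager-deleted, was -0.02 over the members and -0.01 over all genes, with 32 members above 0 and 49 below. For 76 of 81 members the log2 fold change was within 0.2 of 0.

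The precision of these differences was high for most members. The median standard error was 0.078 on the log2 scale, and the 95% interval from the quasi-likelihood fit lay within 0.5 of 0 for 74 members and within 0.3 of 0 for 66. The 7 members with wider intervals were the muscle isoforms Cox6a2, Cox7a1 and Cox8b, the low-expressed complex IV genes Cox6b2, Cox6c2 and Cox7b2, and Atp5l of complex V; Cox6c2 is annotated as a processed pseudogene in GENCODE M21. Between mice, the level of the 75 members other than these 6 complex IV genes had a median SD of 0.110 on the log2(CPM + 1) scale. The same SD over 5859 other genes at 33.4 to 223 CPM had a median of 0.108. That band is narrower than the range of the 75 members, whose means ran from 8.11 to 1120 CPM.

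**Figure D1:**
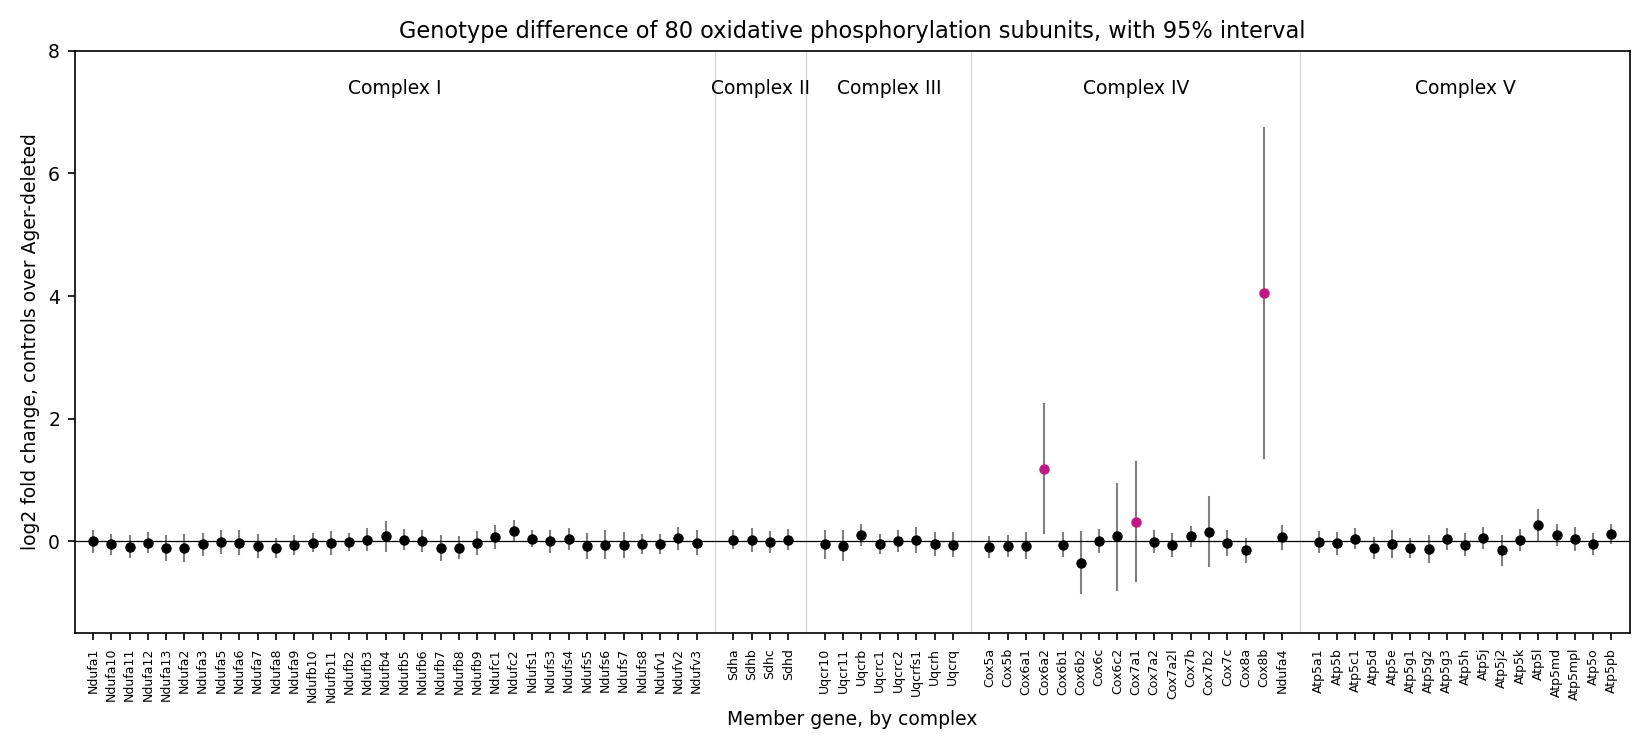
Log2 fold change (controls over Ager-deleted, vertical axis) of 80 members, by complex along the horizontal axis, as points with the 95% interval of the quasi-likelihood fit as bars; the muscle isoforms Cox6a2, Cox7a1 and Cox8b are in magenta. The points sit close to 0 in complexes I, II, III and V, and Cox8b at 4.05 and Cox6a2 at 1.18 stand above the rest of complex IV.

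Complex I, the NADH dehydrogenase, had 35 members and 0 calls. Its median log2 fold change was -0.02, and its members ran from -0.11 to 0.17. Ndufv1, which binds NADH and flavin, was at 160, 151, 147 and 173 CPM in Ager-deleted mice and at 153, 148, 162 and 148 CPM in the controls, so that the groups overlapped (log2 fold change -0.05, SE 0.07). Ndufs1, the largest iron-sulfur subunit, was at 146 to 166 CPM over the 8 mice (log2 fold change 0.04, SE 0.06). Of the 12 Ndufa members, accessory subunits around the core, 11 had a log2 fold change below 0, with a median of -0.06 and no call at an unadjusted p under 0.05, so the count of signs is a description. Of these, Ndufa2 was at 60.8, 69.7, 49.5 and 67.2 CPM in Ager-deleted mice and at 59.3, 56.7, 57.4 and 55.5 CPM in the controls (log2 fold change -0.11, SE 0.10), with the control range inside that of the deleted mice.

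Ndufc2, an accessory subunit of the membrane arm of complex I, was the only member whose genotypes did not overlap (1 of 81, where 3.88% of all genes did not overlap). It was at 50.3, 55.5, 60.4 and 62.2 CPM in Ager-deleted mice and at 64.3, 65.6, 65.0 and 62.6 CPM in the controls. Every control was above every deleted mouse, but the highest deleted mouse, E5568, and the lowest control, E6732, were separated by less than the spread within either group. The log2 fold change was 0.17 (SE 0.07), with an adjusted p of 1 by edgeR's exact test, and the exact two-sided permutation test gave p = 0.0286, unadjusted and 1 of 81 such tests, which is the smallest value that 4 mice against 4 allow. Ndufc1, the other member of its subfamily, was at 36.1 to 46.6 CPM with overlapping groups (log2 fold change 0.07).

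Complex II, succinate dehydrogenase, is the one complex made wholly from nuclear genes. Its 4 subunits showed the smallest range of differences, from -0.0049 to 0.03 on the log2 scale. It also had the fewest members, and a range depends on the number of genes, so this ranking is a description. Sdha, the flavoprotein, was at 471, 457, 487 and 508 CPM in Ager-deleted mice and at 500, 484, 508 and 470 CPM in the controls (log2 fold change 0.03, SE 0.07). Sdhb, the iron-sulfur subunit, was at 129 to 160 CPM in the deleted mice and at 138 to 154 CPM in the controls, inside that range (log2 fold change 0.02, SE 0.08). The membrane anchors Sdhc and Sdhd were at 99.4 to 123 CPM and 84.7 to 100 CPM over the 8 mice.

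Complex III, which passes electrons from ubiquinol to cytochrome c, had 8 members, 0 calls and a median log2 fold change of -0.04. Uqcrc1 and Uqcrc2, its core proteins, were at 216 to 255 CPM and 157 to 189 CPM (log2 fold change -0.04, SE 0.06, and 0.0013, SE 0.07). Uqcrfs1, the Rieske iron-sulfur protein, was at 96.3, 106, 84.6 and 109 CPM in Ager-deleted mice and at 109, 100.1, 101 and 90.5 CPM in the controls, overlapping throughout (log2 fold change 0.02, SE 0.09). The remaining 5 small subunits ran from -0.07 for Uqcr11 to 0.10 for Uqcrb, which shares sequence with 3 near-identical copies elsewhere in the transcript set.

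Complex V, the ATP synthase, had 17 members, 0 calls and a median log2 fold change of -0.01. Atp5b, the catalytic beta subunit, was at 1098, 1134, 1096 and 1197 CPM in Ager-deleted mice and at 1145, 1095, 1161 and 1035 CPM in the controls (log2 fold change -0.03, SE 0.08). Atp5a1, the alpha subunit, was at 844, 840, 827 and 930 CPM and at 876, 837, 891 and 817 CPM (log2 fold change -0.01, SE 0.07). The groups overlapped for both, and Atp5c1, the gamma subunit of the central stalk, was at 186 to 224 CPM over all mice (log2 fold change 0.05, SE 0.07).

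The c ring of complex V, which turns as protons pass, is made from 3 genes that encode the same mature protein with different import sequences. Over the 8 mice Atp5g3 was at 184 to 226 CPM, Atp5g1 at 70.2 to 87.0 CPM and Atp5g2 at 16.2 to 21.6 CPM. Per kilobase of merged exons Atp5g3 was the highest of these (95.1 CPM per kb), and the order of Atp5g1 and Atp5g2 depended on the length used, at 15.5 and 11.5 CPM per kb of merged exons and 16.2 and 26.3 CPM per kb of the principal transcript. Their log2 fold changes were 0.04 (SE 0.07), -0.10 (SE 0.07) and -0.12 (SE 0.10), and no genotype difference passed the threshold. The level of Atp5g2 is uncertain, since 2 other transcripts match it, one over a stretch that is 100% identical.

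Atp5l, the membrane subunit g of complex V, was the member outside complex IV with the highest log2 fold change. It was at 6.86, 6.98, 8.72 and 6.85 CPM in Ager-deleted mice and at 9.19, 8.92, 8.16 and 9.19 CPM in the controls. E5248 was the one deleted mouse inside the control range (log2 fold change 0.27, SE 0.11; adjusted p = 1 by edgeR's exact test; exact two-sided permutation test, p = 0.0571). Atp5l has 9 near-identical copies, 8 of them annotated as pseudogenes, so its count depends on how reads that match several places were treated, which is not given in the sources used here. Atp5pb, of the peripheral stalk, was at 165 to 195 CPM in the deleted mice and at 185 to 206 CPM in the controls (log2 fold change 0.12, SE 0.07), with overlap. Among the members of complex V that were lower in controls, Atp5j2 and Atp5d had the smallest p, with log2 fold changes of -0.14 (SE 0.11) and -0.11 (SE 0.07).

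**Figure D2:**
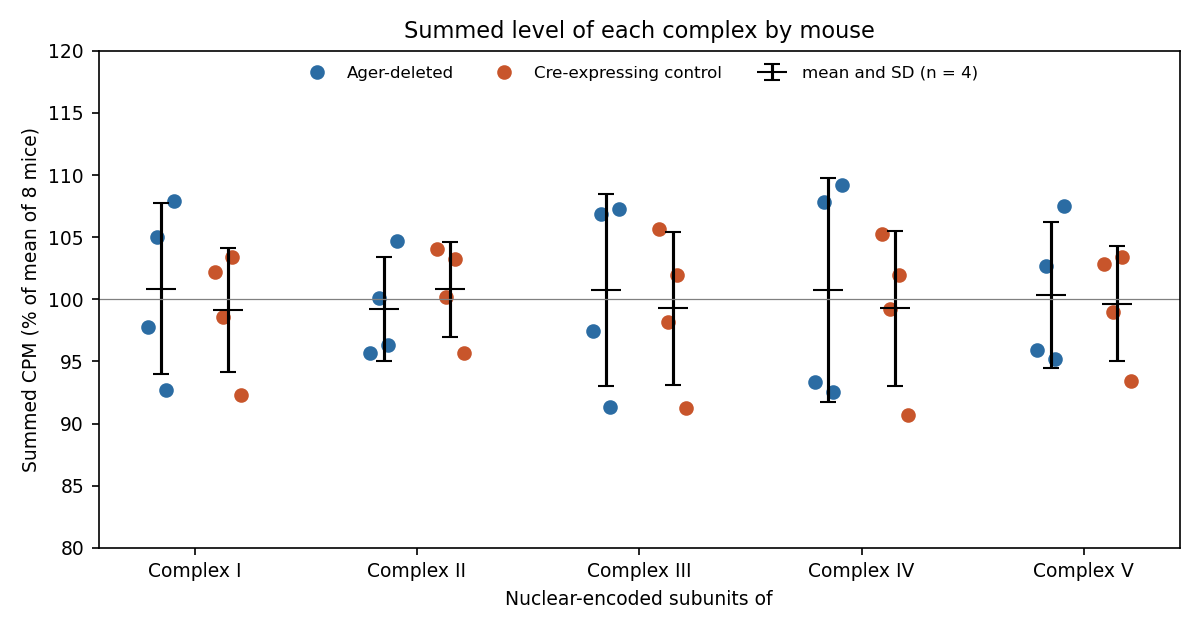
Summed CPM of the nuclear-encoded subunits of each complex in each mouse (vertical axis, percent of the mean of the 8 mice, axis from 80 to 120), blue for Ager-deleted mice and orange for controls, with the group mean and SD (n = 4) in black. The groups overlap in every complex.

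Summed over all 81 members, the Ager-deleted mice were at 9312, 10103, 9085 and 10422 CPM (9731 ± 635, SD, n = 4) and the controls at 10013, 9581, 9976 and 8972 CPM (9636 ± 483, SD, n = 4). By complex, the means of deleted mice and controls were 2768 ± 190 and 2720 ± 137 CPM for complex I, 832 ± 35.0 and 846 ± 31.9 for complex II, 952 ± 73.1 and 938 ± 58.3 for complex III, 1503 ± 135 and 1481 ± 93.0 for complex IV, and 3675 ± 214 and 3650 ± 168 for complex V (SD, n = 4 each). In every complex the difference was smaller than the SD of either group.

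Complex IV, cytochrome c oxidase, was the complex with both unadjusted calls of the exact test, 2 of 17 members, and both were muscle isoforms. Its median log2 fold change was -0.0027, and none of its other members had an unadjusted p under 0.05. Cox5a and Cox5b, subunits that every tissue uses, were at 85.3 to 110 CPM and 113 to 139 CPM (log2 fold change -0.09, SE 0.07, and -0.07, SE 0.07). Ndufa4 was at 156 to 203 CPM (log2 fold change 0.07). Cox6b2 and Cox7b2, isoforms known mainly from testis, were low, at 4.55 to 10.8 CPM and 0.254 to 0.423 CPM, and Cox6c2, the annotated pseudogene, was at 0.383 to 1.33 CPM. Cox6b2 had the lowest log2 fold change of any member, -0.35 (SE 0.23; exact two-sided permutation test, p = 0.286), and its groups overlapped.

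Subunits 6a, 7a and 8 of complex IV come in a form used by most tissues (Cox6a1, Cox7a2 and Cox8a) and a form of heart, skeletal muscle and brown fat (Cox6a2, Cox7a1 and Cox8b). Cox8b lies at chr7:140898945-140900446 on the minus strand, Cox6a2 at chr7:128205435-128206387 on the minus strand and Cox7a1 at chr7:30184144-30186078 on the plus strand of GRCm38. Exons of Cox6a2 overlap those of Itgad on the other strand, and without a stated strand setting reads of the pair cannot be told apart; Itgad was at 2.11 CPM in E5386 and 5.31 CPM in E5642, within its range of 1.41 to 6.08 CPM over the 8 mice.

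Promoter windows are shown for 2 of the 3 pairs of muscle and general isoforms, those of subunits 7a and 8; none was analysed here for Cox6a2. The windows run from 250 bases before to 50 after the transcript start and are from RefSeq on GRCm38.p6. They were searched on both strands for CGGAAG (the ETS core bound by NRF2/GABP), the NRF1 core (GCGC and GCGC with 2 free bases between), CANNTG (E-box), the MEF2 motif (CTA and TAG with 4 free bases between) and AAGATGG (YY1), of which CGGAAG and AAGATGG can share letters. Of 81 members, 68 had a window (73 windows). CGGAAG was in 39.7% of member windows and 16.9% of all 32851 windows, the NRF1 core in 26.0% and 6.23%, AAGATGG in 15.1% and 6.34%, CANNTG in 67.1% and 72.3%, and the MEF2 motif in 1.37% and 3.69%. The windows of Cox8b (chr7:140900397-140900696, minus strand) and Cox7a1 (chr7:30183921-30184220, plus strand) held 2 matches and 1 match of the E-box and 0 of the other motifs. Those of Cox8a (chr19:7217567-7217866, minus strand) and Cox7a2 (chr9:79759804-79760103, minus strand) held 2 matches and 1 match of the ETS core, with 1 E-box match each, and Cox6a1 held 1 of the ETS core and 2 of NRF1. The sequences are given 5′ to 3′ on the gene's strand with the matches in capitals, the ETS core reading CTTCCG where it lies on the other strand.
Cox8b: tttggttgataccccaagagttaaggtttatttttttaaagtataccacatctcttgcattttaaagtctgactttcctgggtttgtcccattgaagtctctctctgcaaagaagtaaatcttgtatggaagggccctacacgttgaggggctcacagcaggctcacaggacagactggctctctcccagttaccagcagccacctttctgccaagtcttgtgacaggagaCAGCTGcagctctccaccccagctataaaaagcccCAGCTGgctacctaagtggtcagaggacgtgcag
Cox8a: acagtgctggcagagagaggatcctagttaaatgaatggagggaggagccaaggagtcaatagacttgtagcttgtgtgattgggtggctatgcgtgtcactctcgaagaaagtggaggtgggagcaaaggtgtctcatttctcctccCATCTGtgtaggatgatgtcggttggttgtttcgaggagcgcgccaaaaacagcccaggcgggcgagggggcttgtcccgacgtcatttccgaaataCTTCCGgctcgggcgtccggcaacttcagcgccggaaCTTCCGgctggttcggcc
Cox7a1: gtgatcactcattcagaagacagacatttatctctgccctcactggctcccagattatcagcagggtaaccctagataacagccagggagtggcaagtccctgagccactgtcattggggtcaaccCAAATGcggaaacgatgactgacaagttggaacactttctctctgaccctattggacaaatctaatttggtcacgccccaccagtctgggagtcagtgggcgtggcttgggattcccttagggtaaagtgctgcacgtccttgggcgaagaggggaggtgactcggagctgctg
Cox7a2: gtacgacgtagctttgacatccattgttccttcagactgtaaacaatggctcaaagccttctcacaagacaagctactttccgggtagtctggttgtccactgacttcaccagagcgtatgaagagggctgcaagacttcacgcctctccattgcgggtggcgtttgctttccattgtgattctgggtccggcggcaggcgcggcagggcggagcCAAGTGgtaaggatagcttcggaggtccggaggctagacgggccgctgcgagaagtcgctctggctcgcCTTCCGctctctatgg
A match is a description of these letters and not a bound site.

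All 3 muscle isoforms were highest in the same mouse, control E5386. Cox8b was at 0.279, 0.270, 0.254 and 0.465 CPM in Ager-deleted mice, from 9 to 18 counts, and at 16.7, 4.08, 0.195 and 0.316 CPM in the controls, from 609, 132, 6 and 13 counts. Controls E5386 and E5642 were 52.5-fold and 12.9-fold above the mean of the deleted mice, and controls E6578 and E6732 were within or below the range of the deleted mice. The log2 fold change was 4.05 (SE 1.21), with an adjusted p of 0.130 by edgeR's exact test and p = 0.343 by the exact two-sided permutation test.

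Cox6a2 was at 4.88, 3.99, 2.77 and 3.77 CPM in Ager-deleted mice and at 15.3, 12.8, 3.97 and 2.94 CPM in the controls. The same controls, E5386 and E5642, were 3.97-fold and 3.34-fold above the mean of the deleted mice, and the other controls lay within the deleted range. The log2 fold change was 1.18 (SE 0.47; adjusted p = 0.835 by edgeR's exact test; exact two-sided permutation test, p = 0.286).

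Cox7a1 was at 8.31, 11.9, 3.61 and 5.32 CPM in Ager-deleted mice and at 16.8, 9.14, 4.52 and 5.86 CPM in the controls. Control E5386 was the highest mouse again, at 2.31-fold the mean of the deleted mice, but deleted mouse E5231 was above E5642, and the groups overlapped. The log2 fold change was 0.32 (SE 0.44; exact two-sided permutation test, p = 0.629). Unlike Cox8b, Cox6a2 and Cox7a1 were well above the floor in all 8 mice.

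**Figure D3:**
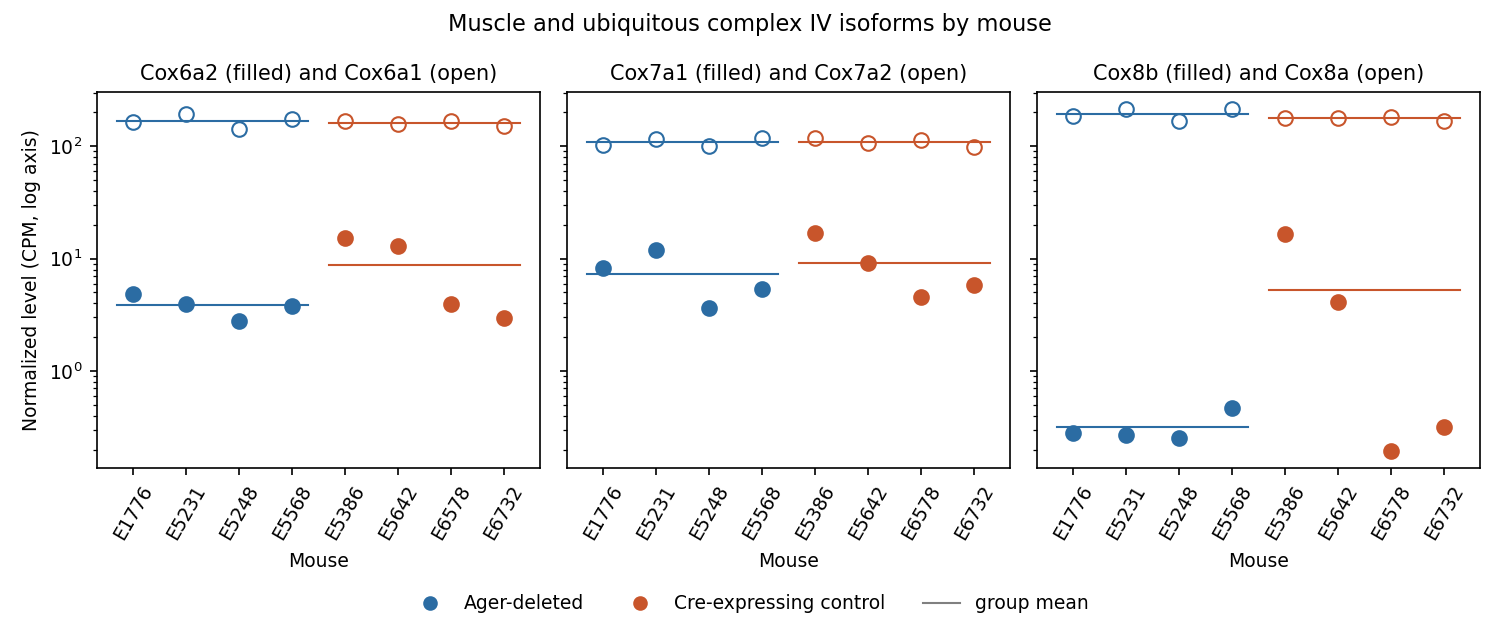
Normalized level (CPM, log axis) of each muscle isoform (filled) and its general counterpart (open) in each of the 8 mice, blue for Ager-deleted mice and orange for controls, with lines for group means. The open points are level across mice, between 98.5 and 214 CPM, while Cox8b reaches 16.7 CPM in E5386 and 4.08 CPM in E5642 and is at most 0.465 CPM in the other 6 mice.

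The general counterparts did not show this pattern. Cox6a1 was at 164, 192, 142 and 176 CPM in Ager-deleted mice and at 169, 157, 166 and 150.1 CPM in the controls (log2 fold change -0.07, SE 0.09). Cox7a2 was at 98.5 to 119 CPM over the 8 mice (log2 fold change -0.0027, SE 0.08). Cox8a was at 186, 212, 168 and 214 CPM in the deleted mice and at 179, 177, 183 and 166 CPM in the controls (log2 fold change -0.15, SE 0.08; adjusted p = 1 by edgeR's exact test), with overlapping groups.

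Per kilobase of exon, the muscle isoform was the minor form of its pair in every mouse. Cox8b made up 0.183% to 0.373% of its pair in 6 mice, 3.80% in E5642 and 13.8% in E5386. Cox6a2 made up 1.97% to 2.98% in the same 6 mice, 7.79% in E5642 and 8.55% in E5386. Cox7a1 ran from 5.94% in E5248 to 20.03% in E5386, with 13.0% in E5642 inside the range of the Ager-deleted mice, which reached 15.2% in E5231.

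With E5386 and E5642 left out, the muscle isoforms were no longer higher in controls. The log2 fold changes became -0.27 for Cox8b, -0.16 for Cox6a2 and -0.48 for Cox7a1, and none had an adjusted p under 1 by edgeR's exact test. Without E5386 alone the log2 fold change of Cox7a1 was -0.16, that of Cox6a2 0.78 and that of Cox8b 2.26. Leaving out either of the other controls had the opposite result. Cox8b then passed the threshold, with a log2 fold change of 4.45 without E6578 (adjusted p = 0.00205 by edgeR's exact test) and of 4.44 without E6732 (adjusted p = 0.00224), and Cox6a2 passed without E6732 (log2 fold change 1.47, adjusted p = 0.0458). These were 1 and 2 of 81 members, where 0.496% and 0.451% of all genes passed in the same fits. With common and tagwise dispersions in all 8 mice, Cox8b had an adjusted p of 0.00708 by edgeR's exact test, and over all settings its adjusted p ran from 0.00205 to 1.

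Skeletal muscle markers were high in E5386 and E5642, the controls with high Cox8b and Cox6a2, and the summed fat markers in E5386 alone. Cox7a1 followed the muscle markers less closely, at 9.14 CPM in E5642 and 11.9 CPM in deleted mouse E5231. Of the skeletal muscle list, 29 of 32 genes were tested. They summed to between 189 and 211 CPM in the 4 Ager-deleted mice and controls E6578 and E6732, 1529 CPM in E5386 and 2250 CPM in E5642. Without Pygm and Tnni1, which were present in every mouse, the sum was 1343 CPM in E5386, 2056 CPM in E5642 and 47.8 to 68.1 CPM elsewhere. In CPM, 27 of the 32 genes were highest in E5642 and 5 in E5386 (Mb, Myh2, Myl3, Tnni1 and Tnnt1). The adipocyte list of 10 genes summed to 143 to 329 counts in 7 mice and to 7590 counts in E5386. There, 9 of the 10 genes were highest in CPM, among them Lep, a hormone of white fat, at 0 to 2 counts in every mouse. The exception was Retn, with 10 counts in E5231 and 5 counts in E5386. Ucp1, the uncoupling protein that defines brown fat, had 1542 counts in E5386 and 2 to 8 counts elsewhere, and Adipoq had 316 counts against 2 to 9. The liver list, highest for 9 of its 10 genes in E6732, did not move with these isoforms. The part of any of these tissues in the result was not tested.

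**Figure D4:**
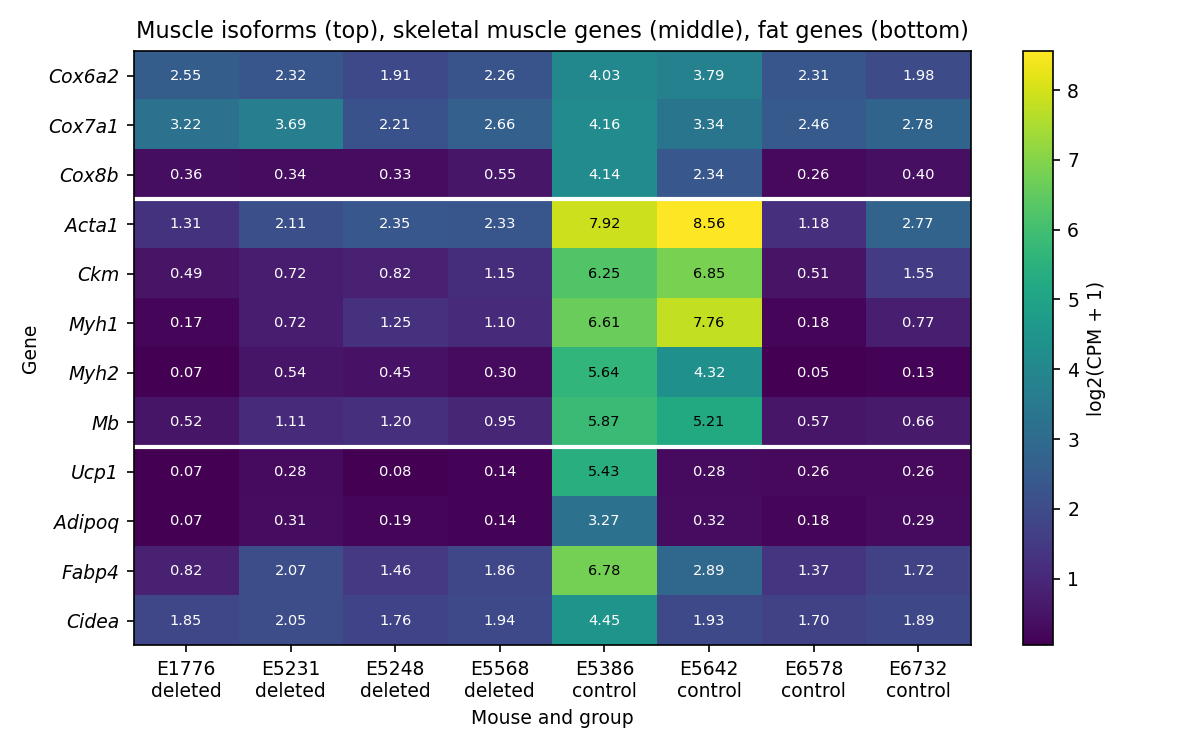
Level of each muscle isoform, 5 skeletal muscle genes and 4 fat genes (rows) in each mouse (columns), as log2(CPM + 1) printed in each cell and colored on the scale at the right. E5386 and E5642 are high for muscle genes, and E5386 alone is high for Ucp1 (5.43, against at most 0.28 elsewhere).

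The isoforms did not keep the same order as the muscle genes across this pair of mice. Ckm, the muscle creatine kinase, was at 74.9 CPM in E5386 and 114 CPM in E5642, and Myh1, a fast myosin, at 96.4 and 216 CPM, so both were higher in E5642. Cox8b was 4.09 times higher in E5386, Cox7a1 1.84 times and Cox6a2 1.19 times. Myh2, the myosin of oxidative fast fibers, and Mb, the oxygen carrier of oxidative fibers, were also higher in E5386, by 2.58 and 1.59 times, but genes of slow, oxidative fibers lay on both sides. Tnnt1 and Myl3 were slightly higher in E5386, at 7.06 and 4.87 CPM against 6.14 and 4.69 CPM in E5642. Tnni1 was at 28.0 CPM in E5386 and 21.2 CPM in E5642, but also at 16.4 to 27.7 CPM in the Ager-deleted mice. Myh7, the slow myosin, was higher in E5642, at 15.1 CPM against 11.8 CPM in E5386. So were Myl2, at 10.9 against 8.15 CPM, and Tnnc1, at 6.05 against 3.64 CPM. The ratio of Cox8b to Cox6a2, in CPM and compared only across mice, was 1.09 in E5386, 0.317 in E5642 and 0.0492 to 0.123 in the other mice. These are single libraries, so the differences between them have no replicate check.

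Apart from these isoforms, the members tended to be high or low together within a mouse. Over the 75 members outside the muscle isoforms and the low Cox6b2, Cox6c2 and Cox7b2, the median deviation from the 8-mouse mean on the log2(CPM + 1) scale was 0.11 in E5568, 0.10 in E5231, 0.06 in E5386 and 0.04 in E6578, and was -0.01 in E5642, -0.04 in E1776, -0.11 in E5248 and -0.12 in E6732. Each genotype thus held mice on both sides. The same median over all tested genes was between -0.0057 and 0.0056. Deleted mice E5231 and E5568 were each the highest mouse for 28 of the 75 members, and E5248 and E6732 the lowest for 30 and 25.

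**Figure D5:**
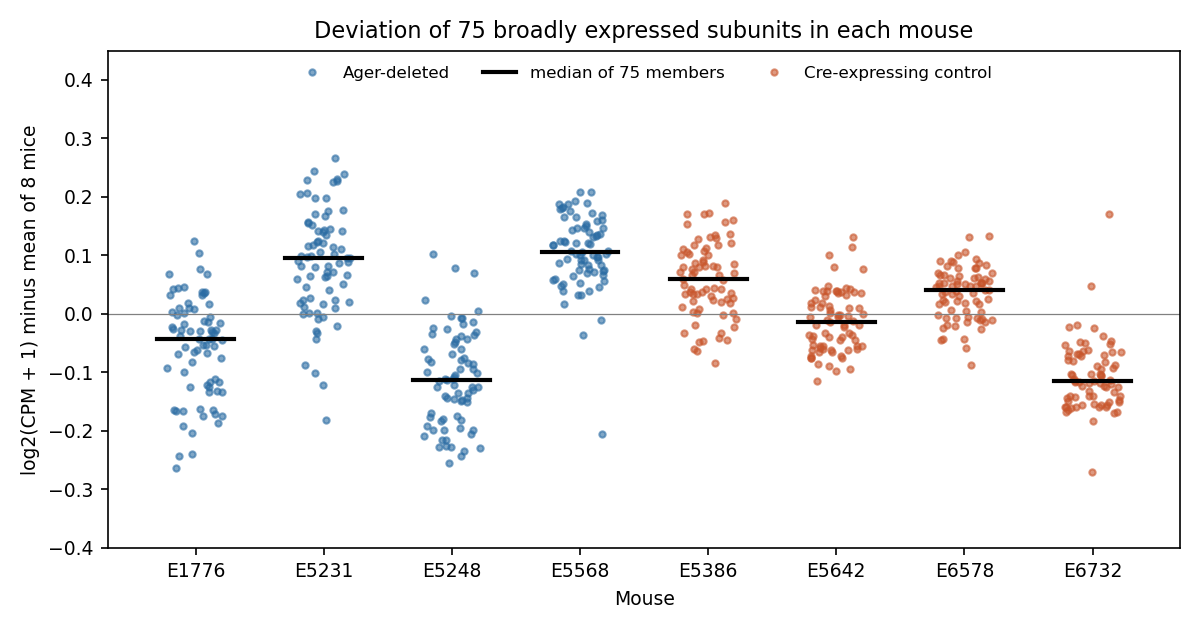
Deviation of each of 75 members (points) from its mean over the 8 mice, on the log2(CPM + 1) scale, by mouse, blue for Ager-deleted mice and orange for controls, with the median as a black bar. The medians of E5231 and E5568 lie above 0 and those of E5248 and E6732 below it, and each genotype has medians on both sides of 0.

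Across the 8 mice the median correlation between pairs of these members was 0.68, and 94.3% of 2775 pairs were positive; by complex, the median ran from 0.45 in complex II to 0.73 in complex IV. All pairs share the same 8 libraries and their scaling, so this is a description. E5248, low for the members, had the highest Snap25 (1783 CPM) and the lowest Gfap (6643 CPM) of the 8 mice, and E6732 was the mouse with the liver genes. Deleted mouse E5231, high for the members, had the lowest Snap25 (1160 CPM), with Gfap at 10660 CPM. E5568, the highest for the members, and E6732, the lowest, had similar levels of both. Snap25 and Gfap were at 1576 and 8429 CPM in E5568 and at 1555 and 8494 CPM in E6732. The deviation was also related to transcript length within some mice (Spearman's rho across 74 genes, which share a library and are not replicates, was -0.47 in E5231, 0.41 in E5248 and 0.33 in E6578). The part of these in the deviation was not tested.

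Members were ranked by level as CPM per kilobase of merged exons. The highest were Ndufa2 in complex I (104), Sdha in complex II (118), Uqcr10 in complex III (159), Cox8a in complex IV (300.1) and Atp5a1 in complex V (274), and the lowest in the same order were Ndufb4 (5.39), Sdhc (34.7), Uqcrq (39.6), Cox7b2 (0.611) and Atp5l (1.26). The median over members was 49.7 in complex I, 71.3 in complex II, 70.3 in complex III, 114 in complex IV without its muscle isoforms and the low Cox6b2, Cox6c2 and Cox7b2, and 53.3 in complex V. The ranking depends on the length used. With the longest principal transcript in place of merged exons, the highest members were Ndufb8, Sdha, Uqcrh, Cox8a and Atp5b. Of 80 members searched against the transcript set, 10 had at least 1 other transcript matching 95% or more of the bases over at least 50% of their length, and their levels are uncertain.

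Other nuclear genes of the pathway gave no call with edgeR's exact test. Of 9 symbols listed for further subunits and partners, 7 were tested, and the median log2 fold change was -0.09. Atp5if1, which had no counts under that symbol, is another name of Atpif1, which was tested. Cox4i1, the general isoform of subunit 4, was at 324 to 391 CPM. Of 48 assembly factors, 46 were tested with a median of -0.04, and 12 regulators of mitochondrial biogenesis had a median of 0.02; none of the genes of these 3 lists had an unadjusted p under 0.05. Ppargc1a, a coactivator of mitochondrial biogenesis, was at 41.1 to 55.1 CPM (log2 fold change 0.03).

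The mitochondrial-encoded subunits, the partners of the members in complexes I, III and IV, were examined next. Of 13 such genes, 8 were tested, and mt-Co2, mt-Co3, mt-Atp6, mt-Atp8 and mt-Nd4l had at most 9 counts in any mouse. All 8 had a log2 fold change above 0 (median 0.43) and an unadjusted p under 0.05, where 4.26% of all genes had one. With controls E5386 and E5642 left out, their median log2 fold change was 0.42. In all 8 mice, 0 passed after adjustment by edgeR's exact test. The same test with common and tagwise dispersions called 3, mt-Nd1, mt-Nd2 and mt-Nd3, where it called 0.401% of all genes. DESeq2 called 2, where it called 0.128%, and the exact test without deleted mouse E5248 called 3, where it called 0.269%. In 5 of 8 every control was above every deleted mouse, where 3.88% of all genes did not overlap in either direction. These genes share the same 8 libraries and their scaling, so the counts are a description.

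mt-Nd1, a core subunit of complex I, was at 2305, 2812, 4110 and 3301 CPM in Ager-deleted mice and at 5361, 5009, 4890 and 4255 CPM in the controls (log2 fold change 0.64, SE 0.17; adjusted p = 0.103 by edgeR's exact test). mt-Nd3 was at 3.00, 2.53, 6.49 and 3.21 CPM and at 7.11, 8.12, 6.86 and 9.97 CPM (log2 fold change 1.08, SE 0.27; adjusted p = 0.103 by edgeR's exact test). In both, the highest deleted mouse was E5248, which was among the lowest for the nuclear-encoded members. mt-Co1, the catalytic subunit of complex IV, was at 8576 to 12903 CPM in the deleted mice and at 12588 to 14744 CPM in the controls (log2 fold change 0.35, SE 0.16), with overlap.

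In Ager-deleted mice, the summed level of the 8 tested mitochondrial-encoded genes was 2.48, 2.77, 3.81 and 3.04 times the summed level of the nuclear-encoded members. In the controls it was 4.13, 4.12, 3.88 and 3.84 times. Every control was above every deleted mouse; the highest deleted mouse, E5248, and the lowest control, E6732, were close. The ratio was given as a description, with no test. Nuclear copies of mitochondrial DNA share sequence with these genes, and how reads that match several places were counted is not given in the sources used here, so their levels are uncertain.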

How the data were processed

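Lumbar spinal cord RNA from 8 mice was sequenced after selection of polyadenylated RNA in a stranded library kit. The authors trimmed reads with Trimmomatic 0.36, aligned read pairs to mm10 with STAR 2.7.3a and counted them per gene of the GENCODE annotation with featureCounts of Subread 1.6.3, as the submitters' processing notes and the paper's methods state; the strand setting is not given in the sources used here. The deposited raw counts per gene were used for every value. The authors also deposited log2 values, which are log2 CPM scaled by edgeR's TMM method (a trimmed mean of log ratios); these served to choose the members and to check the filter and scaling, which were recovered from the counts within 4.78e-06.

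Groups were taken from the genotype in the labels and mice are named by their IDs, which also name the columns. The mice are separate animals, and the 28 pairs differed by more than sampling noise (chi-square per degree of freedom 17.4 to 131). Depth was 31148047 to 40324897 counts per mouse.

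Genes were filtered with filterByExpr (minimum 10 counts), scaled by TMM, and compared (edgeR 4.0.16, R 4.3.3) with the exact test that the study's methods name, with dispersions from estimateDisp without a design (the study's dispersion estimate is not given in the sources used here), in all 8 mice and over all 19470 genes, with Benjamini-Hochberg adjustment and a threshold of 0.05. Standard errors and 95% intervals are from edgeR's quasi-likelihood fit. Levels per mouse are TMM-scaled CPM, and single genes were also compared by exact two-sided permutation of log2(CPM + 1) over 70 splits in scipy 1.17.1. The fits were tested on simulated data, with a log2 change of 1.5 in 198 of 19256 genes. The exact test recovered 187 of these with 26 false calls, with either dispersion estimate. DESeq2 recovered 181 with 25 false calls, quasi-likelihood 181 with 6, and limma-voom 180 with 5. The members and all gene lists were chosen with earlier results of these data known, and lists are therefore described by counts and medians, with no test. The genes named are the muscle and general isoforms, the catalytic core and c ring, the 5 members with the smallest p in each direction, the 5 with the largest spread, and the highest and lowest per length in each complex; others are given as background or examples and were chosen after their values were seen.

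Positions, exon lengths and copies (blastn 2.17.0+, at least 95% identity over 50% of a principal transcript) are from GENCODE M21 on GRCm38, an earlier release than the one counted; 80 of 81 members matched once, 2 of them under an older symbol, and 24 members overlap exons of a gene on the other strand. Alternatives were other scalings (RLE, upper quartile, library size), other filters, common and tagwise dispersions, quasi-likelihood, DESeq2 1.42.0, limma-voom 3.58.1, removal of muscle and fat genes, a threshold of 0.10, pseudocounts of 0.5 and 0.1 CPM, and each mouse or controls E5386 and E5642 left out; 2 combinations of the last with another test, and the principal-transcript length, were added after the data were seen. A comparison of isoform proteins was not analysed here, and 1 member counted in the totals is not reported by name.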

Additional observations from a re-analysis of the deposited data

Results flagged for a closer look

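Among 78 groups of 4 mice (the named genes and sums, each genotype apart), 6 held a mouse whose distance from the other 3 was, as a part of the group's range, above the 95% critical value of Dixon's test; chance alone marks about 1 in 20 groups. Control E6732 was set apart downward for Cox5a, a subunit that every tissue uses, at 85.3 CPM against 95.8 to 96.0 CPM. Deleted mouse E5568 was set apart upward for Atp5a1, at 930 CPM against 827 to 844 CPM, and for Cox8b, at 0.465 CPM against 0.254 to 0.279 CPM, where the counts were 18 against 9 to 11. Deleted mouse E5248 was set apart downward for Atp5g2, at 16.2 CPM against 20.9 to 21.6 CPM, and upward for Atp5l, at 8.72 CPM against 6.85 to 6.98 CPM. Control E5386 was set apart upward for Atp5g2, at 19.4 CPM against 17.9 to 18.1 CPM. Of the 6, 2 each were in E5248 and E5568 and 1 each in E6732 and E5386; E5248 and E6732 were the mice in which most members were low. Cox8b in controls was not marked, since 2 of the 4 mice were high.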

How the results depend on the processing

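No paired analysis was possible because the labels give mouse IDs and no replicate numbers that the genotypes share. The count of members called was 0 by the exact test under every scaling, filter and threshold tried, and by quasi-likelihood, DESeq2 and limma-voom. The filter of at least 1 CPM in 4 mice removed Cox8b, so it could not be called there. With common and tagwise dispersions the count was 1, and complex IV also had 1. With 1 mouse left out both counts ran from 0 to 2, at 1 without E6578 and 2 without E6732. Among mitochondrial-encoded genes 3 were called with common and tagwise dispersions, 2 with DESeq2, and 0 to 3 with 1 mouse left out. Cox8b was called with common and tagwise dispersions (log2 fold change 4.05). With E5386 and E5642 left out, the log2 fold changes of Cox6a2, Cox7a1 and Cox8b were -0.16, -0.48 and -0.27 in the exact test, in the fit with tagwise dispersions and in quasi-likelihood; with 1 mouse left out they ran from 0.78 to 1.47, -0.16 to 0.66 and 2.26 to 4.45. Summed complex IV, at -0.02 on the log2 scale, was 0.11 as a mean of log2(CPM + 1), which weights the low isoforms equally.

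Outside the muscle isoforms, signs turned only for differences that were called under no setting. Cox7a2 was at 0.0017 with RLE, 0.00022 with the 1 CPM filter and 0.0017 with DESeq2. Sdhb, Uqcrc2 and Uqcrfs1 were at -0.0064, -0.024 and -0.0097 by library size, Uqcrc2 at -0.0039 with upper quartile and -0.0020 with no filter, and Sdhb and Uqcrfs1 at -0.0072 and -0.045 without E5386 and E5642 in all 3 fits. Cox6c2 was at -0.0067 with limma-voom. With 1 mouse left out, ranges that crossed 0 were -0.041 to 0.043 for Cox7a2, -0.032 to 0.073 for Sdhb, -0.042 to 0.0499 for Uqcrc2, -0.053 to 0.064 for Uqcrfs1, -0.029 to 0.031 for Atp5a1, -0.052 to 0.0019 for Atp5b, -0.0095 to 0.088 for Atp5g3, -0.25 to 0.34 for Cox6c2, -0.12 to 0.0304 for Uqcr10 and -0.062 to 0.037 for Sdhc. The cause was not tested.

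Depth limits the low isoforms most: Cox8b rests on 6 to 18 counts in 6 of 8 mice, so its fold change there has a wide counting error.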

Other observations

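Of the 5 symbols ending in -ps, Ndufb1-ps was at 50.1 to 63.8 CPM, with a log2 fold change of 0.09. The others were low, at 5.28 to 8.44 CPM for Ndufa12-ps, 1.02 to 1.94 CPM for Cox5b-ps, 0.914 to 1.44 CPM for Ndufs5-ps and 0.657 to 1.33 CPM for Atp5pb-ps. Ndufa4l2, left out by name, was at 1.38 to 2.72 CPM (log2 fold change -0.35). All 6 had an adjusted p of 1 by edgeR's exact test.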
